A study of Rattus norvegicus with 6 samples.

Results

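The genes described here are 10 core genes of the Notch pathway, namely the receptors Notch1, Notch2 and Notch3, the ligands Jag1, Jag2 and Dll1, the DNA-binding factor Rbpj, and the target genes Hes1, Hes5 and Hey1. They were chosen by symbol as a textbook set, and all 10 were found among the 29468 gene symbols listed in the 6 samples. Of the 29468 symbols, 20494 were above 0 in at least 1 sample and 13003 had a mean of at least 1 FPKM, the level at which a gene was tested. Of the 10 genes, 9 passed this filter and Hes5 did not.

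RNA-seq was performed on Schwann cell precursors (SCPs) and repair Schwann cells (RSCs) of LEWIS rats, which the labels give as wild type, with 3 samples per group. SCPs were taken from untreated embryos at embryonic day 14, from the sciatic nerves of both sides and the brachial plexus. RSCs came from the distal part of sciatic nerves of adults aged 10 weeks, cut 1 week before. Both were enzymatically dissociated, and the study's methods describe a final step in which cells sticking to uncoated flasks, such as fibroblasts and macrophages, were left behind. The groups therefore differ at once in age, injury, tissue taken and dissociation, and these cannot be told apart. The study describes 3 sets of cells prepared per group and the labels do not name the animals behind each sample, so p-values measure the spread between these preparations.

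Notch receptors are surface proteins that are activated by Jagged and Delta ligands on a neighbouring cell. Ligand binding lets ADAM proteases and then the gamma-secretase complex cut the receptor, and the freed intracellular part enters the nucleus, joins Rbpj and Mastermind-like coactivators and switches on genes of the Hes and Hey families, which encode transcriptional repressors. In developing nerves the pathway is known to promote the passage from SCPs to immature Schwann cells and their proliferation, and to oppose myelination.

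Rbpj reads DNA through the core TGGGAA. Promoter stretches that hold it are shown for the target genes Hes1, Hes5 and Hey2 and for the ligand gene Dll1. They hold it at 2 places on either strand, and the levels of these genes are given below for both groups. Capitals mark TGGGAA or its reverse complement TTCCCA, and sequences run 5′ to 3′ on the gene's own strand (RefSeq, build GRCr8).
Hes1, chr11:84213137-84213180, minus strand: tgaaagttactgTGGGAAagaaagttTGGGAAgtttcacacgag
Hes5, chr5:170804327-170804496, plus strand: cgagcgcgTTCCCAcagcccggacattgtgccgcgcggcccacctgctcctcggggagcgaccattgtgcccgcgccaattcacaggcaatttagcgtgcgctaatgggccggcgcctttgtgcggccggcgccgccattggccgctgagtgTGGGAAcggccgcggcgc
Hey2, chr1:28640913-28641057, plus strand: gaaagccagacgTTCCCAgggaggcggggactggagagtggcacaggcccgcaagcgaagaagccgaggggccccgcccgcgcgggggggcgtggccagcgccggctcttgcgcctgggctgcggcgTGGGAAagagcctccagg
Dll1, chr1:64993339-64993471, minus strand: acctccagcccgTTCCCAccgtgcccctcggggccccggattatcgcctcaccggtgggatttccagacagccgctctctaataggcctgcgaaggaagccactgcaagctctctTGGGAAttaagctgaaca

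In Hes1 the matches began 123 and 109 bases before the transcription start, both in the forward direction and with 8 bases between them. In the other promoters shown, 1 match lay in each direction, and 138, 109 and 97 bases separated them in Hes5, Hey2 and Dll1. A match on either strand was present in 25.7% of the 33469 promoters of 300 bases in the reference table, and at least 2 matches in 3.85%. A promoter was listed for 9 of the 10 genes, and 5 of the 9 held a match, namely Hes1, Hes5, Dll1, Rbpj and Notch3. A second Rbpj promoter and that of Notch4 also held 2 matches. The promoters of Hes2, Hes6, Heyl and the feedback gene Nrarp held no match, and each of 2 promoters of Hes7 held 1. The matches describe these letters in this window and say nothing about binding in the samples.

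Expression was given in FPKM, a fragment count divided by transcript length and by the total of mapped fragments. The deposited tables list reference transcripts that carry a gene name and, beside them, unnamed transcripts that were assembled from the reads of each sample. The main value of a gene was the sum of its named transcripts. Because unnamed transcripts held most of the FPKM at some of these genes, a second value added them to the named gene they overlap most. They made up 47.2%, 38.8% and 53.9% of the summed FPKM of the 10 genes in SCP1, SCP2 and SCP3, and 28.8%, 65.5% and 54.1% in RSC1, RSC2 and RSC3. A further value was chosen after seeing the data. It weighted each transcript by its length, so that a short fragment of a gene does not count as a full transcript. Unnamed transcripts were taken in only where the assembly had placed them in the same locus as the gene. Absolute depth is unknown, and relative depth, from coverage per FPKM, was 0.933, 1 and 0.878 in SCP1, SCP2 and SCP3 and 0.7997, 0.841 and 0.7896 in RSC1, RSC2 and RSC3.

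The ligands Jag1 and Dll1 and the target Hes1 were lower in RSCs than in SCPs, and none of the 9 tested genes was called higher in RSCs. From named transcripts, Jag1, Dll1 and Hes1 fell, by 3.38-fold, 5.33-fold and 4.86-fold in mean FPKM. Counting unnamed transcripts too, Notch3 fell by 2.92-fold and Notch2 by 1.85-fold as well, and Rbpj fell by 1.28-fold. Jag2, Notch1 and Hey1 passed the threshold neither with named transcripts alone nor with unnamed ones added. Notch1 passed it as lower with length-weighted values. The test was limma on log2(FPKM + 1), RSC minus SCP, with the study's threshold of an unadjusted p under 0.01, and p-values were adjusted over all tested genes by the Benjamini-Hochberg method.

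From named transcripts, 3 of the 9 tested genes (33.3%) were called lower in RSCs, against 22.4% of all 13003 tested genes, and 0 were called higher, against 18.1%. Of the 3, Hes1 passed a fold threshold of 4, taken on log2(FPKM + 1) as a change beyond 2. Of all tested genes, 3.78% passed this threshold as lower and 7.81% as higher. Dll1, at a log2 fold change of -1.48, did not pass it. None of the 9 genes passed it with unnamed transcripts added or with length-weighted values, where Hes1 changed by -1.74 and -1.69. After adding unnamed transcripts, 6 of 9 (66.7%) were called lower, against 32.9% of 14105 genes, and 0 higher, against 21.9%. With length-weighted values, 6 of 9 were again called lower, against 38.0% of 13757 genes, and 0 higher, against 24.9%, and 5 of these 6 were shared with the previous set. The median log2 fold change of the 9 genes was -0.71 from named transcripts, beside -0.17 for all tested genes, and -1.11 beside -0.27 with unnamed transcripts added. Median-of-ratios scaling moved the median of all genes to 0.01 from named transcripts and -0.01 with unnamed ones. The split of all called genes then turned from 2351 higher and 2917 lower to 2763 higher and 2195 lower, and changes are therefore also given relative to the median gene. Under that scaling the median of the 9 genes was -0.51 from named transcripts and -0.82 with unnamed ones, and 3 and 4 of the 9 were called lower, beside 2195 of 13003 and 3318 of 14105 genes, the calls of Notch2 and Rbpj being lost.

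**Figure D1:**
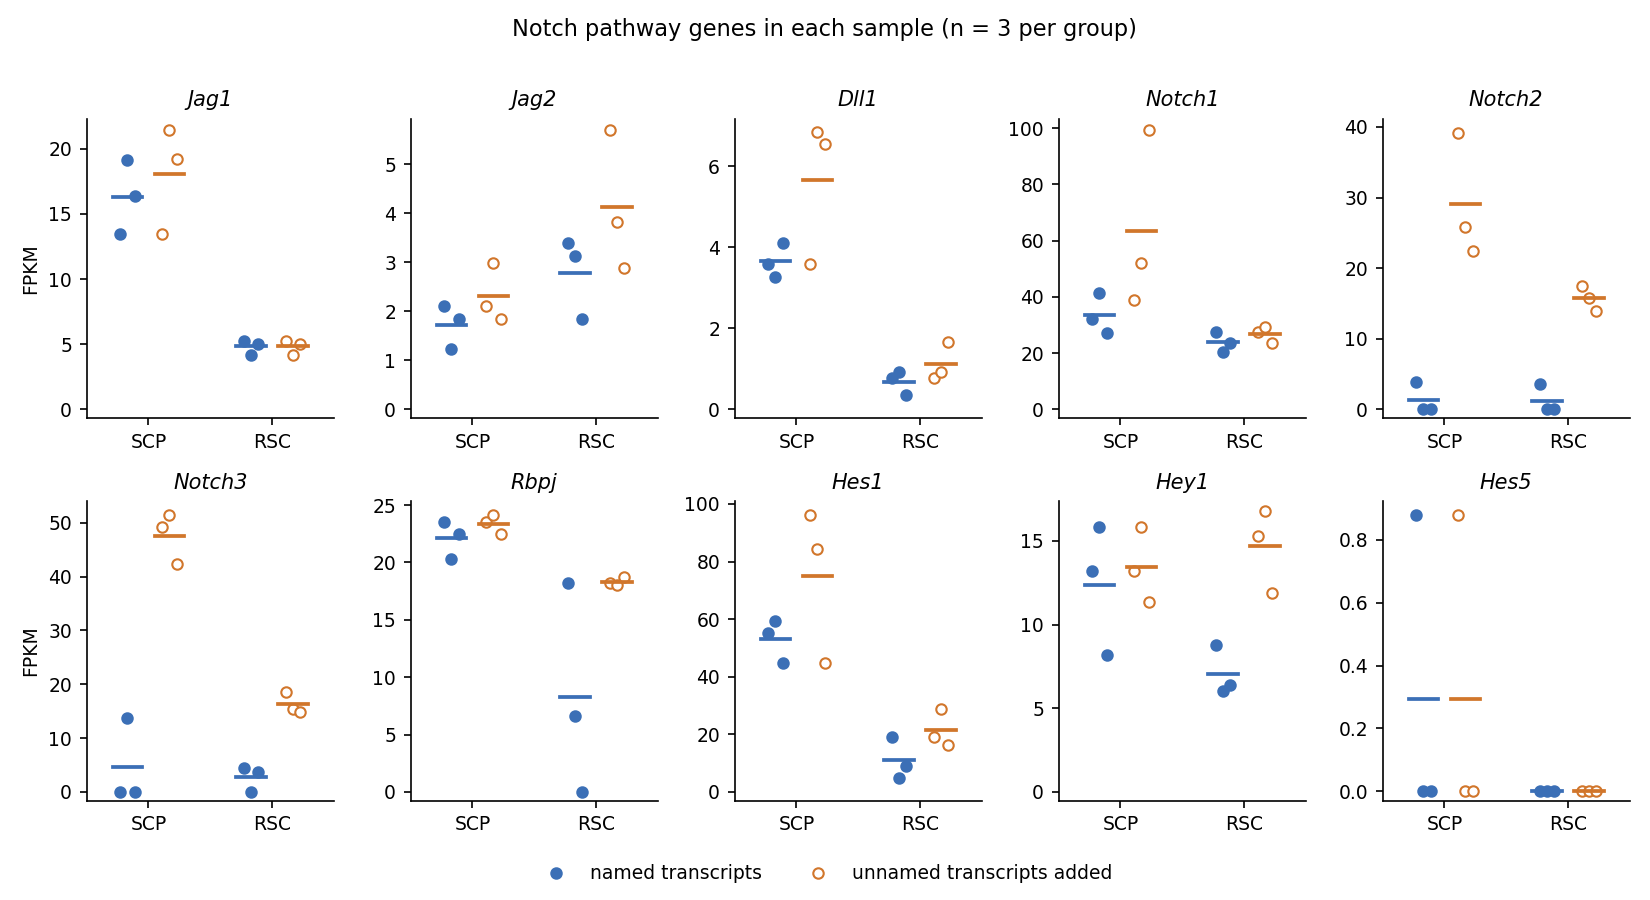
FPKM (vertical axes, each panel with its own scale) of the 10 Notch pathway genes in 3 SCP and 3 RSC samples. Filled points are sums of named transcripts, open points add unnamed transcripts, and short lines are group means. Jag1, Dll1, Hes1 and Rbpj separate the groups with either value, while Notch1, Notch2 and Notch3 do so with unnamed transcripts added.

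Among the ligand genes, Jag1 and Dll1 fell in RSCs and Jag2 had no called change. Jag1 (chromosome 3, 130079361 to 130114781 on rn6) encodes Jagged-1, a membrane ligand of all Notch receptors. Its named transcripts gave 13.4, 19.1 and 16.4 FPKM in SCP1, SCP2 and SCP3, and 5.28, 4.16 and 5.05 FPKM in RSC1, RSC2 and RSC3. The lowest SCP sample was above the highest RSC sample by more than the whole range of the SCP samples. The group means were 16.3 ± 2.85 and 4.83 ± 0.589 FPKM (SD, n = 3 each). The log2 fold change was -1.56 ± 0.18 (SE), with an adjusted p of 0.00105 in limma, and -1.39 relative to the median gene. In RSCs no unnamed transcript was listed at Jag1, and the log2 fold change with unnamed transcripts added was -1.69.

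Dll1 (chromosome 1, 57318621 to 57326732) encodes Delta-like 1. It was listed at 3.59, 3.28 and 4.11 FPKM in SCP1, SCP2 and SCP3, and at 0.788, 0.912 and 0.358 FPKM in RSC1, RSC2 and RSC3. All RSC values were below 1 FPKM and all SCP values were at least 3-fold above them. The log2 fold change was -1.48 ± 0.23 (SE, limma adjusted p = 0.00343), which the added 1 FPKM makes smaller than the ratio of the means. Unnamed transcripts raised SCP2 and SCP3 to 6.84 and 6.54 FPKM and RSC3 to 1.68 FPKM, the groups stayed apart, and the log2 fold change was -1.63. In bulk samples fewer cells of a type and less RNA per cell cannot be told apart, and Dll1 is also known in embryonic muscle precursors. All 8 skeletal muscle markers summed to 36.8, 48.2 and 91.2 FPKM in SCPs and to 2.78, 5.96 and 3.06 FPKM in RSCs, 6 of 7 tested ones were called lower in RSCs, the most abundant was Myog, and Myod1, Myf5 and Pax7 were at 0 in all RSC samples. Their part in the difference in Dll1 was not tested.

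Jag2 (chromosome 6, 137711144 to 137733414), the other Jagged ligand, was the only ligand gene among the 10 whose mean was higher in RSCs. Its values were 2.11, 1.24 and 1.84 FPKM in SCP1, SCP2 and SCP3, and 3.40, 3.13 and 1.84 FPKM in RSC1, RSC2 and RSC3. RSC3 lay within the range of the SCP samples, so the groups overlapped. The log2 fold change was 0.46 ± 0.27 (SE, limma adjusted p = 0.210), and with unnamed transcripts added it was 0.61 ± 0.25 (limma adjusted p = 0.0716). It was -0.32 when the single highest transcript was used, since the FPKM of Jag2 sat on a transcript of 4814 bases in RSC1 and on one of 4929 bases in RSC2. Dll4, the endothelial Delta ligand, gave 1.45, 2.60 and 1.41 FPKM in SCPs and 3.12, 2.83 and 3.01 FPKM in RSCs, with a log2 fold change of 0.53 ± 0.24 (SE, limma adjusted p = 0.122). Every RSC sample lay above every SCP sample for Dll4, although it did not pass the test. Dll3 gave 1.401, 0.453 and 0.511 FPKM in SCPs and 0.683 FPKM in RSC3, and was at 0 in RSC1 and RSC2.

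Jag1 and Dll1 made up less of the ligand FPKM in RSCs than in SCPs and Jag2 and Dll4 more, although neither Jag2 nor Dll4 was itself called, and shares of one sum are bound to each other. Of the summed FPKM of Jag1, Jag2, Dll1, Dll3 and Dll4, which was 24.3 ± 2.37 FPKM in SCPs and 11.5 ± 0.926 FPKM in RSCs (SD), Jag1 held 61.1%, 71.6% and 67.6% in SCP1, SCP2 and SCP3 and 41.9%, 37.7% and 46.1% in RSC1, RSC2 and RSC3. Jag2 held 7.28% ± 2.48 in SCPs and 24.1% ± 6.30 in RSCs, and Dll4 held 7.38% ± 2.09 and 26.0% ± 1.398. Dll1 held 15.2% ± 2.54 in SCPs and 5.93% ± 2.52 in RSCs. For each of these 4 ligands the groups did not overlap, and the two-sided exact permutation p was 0.1, the smallest that 3 samples against 3 allow, so the design cannot reach 0.05. Shares were compared for 9 receptor and ligand genes in all, and for Dll3 the exact permutation p was 0.5. With the single highest transcript per gene the shift in the Jag2 share was 6.96 percentage points instead of 16.8, and its groups overlapped. Of 10 endothelial markers 3 were called higher in RSCs and 0 lower, they summed to 48.8, 79.6 and 58.5 FPKM in SCPs and 133, 132 and 119 FPKM in RSCs, Cldn5 was the most abundant, and none was at 0 in a whole group. Adding unnamed transcripts, the sums were 149.5, 258 and 200.2 FPKM in SCPs and 335, 276 and 254 FPKM in RSCs and overlapped, and Flt1 was the most abundant. Their part in the shares of Dll4 and Jag2 was not tested.

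**Figure D2:**
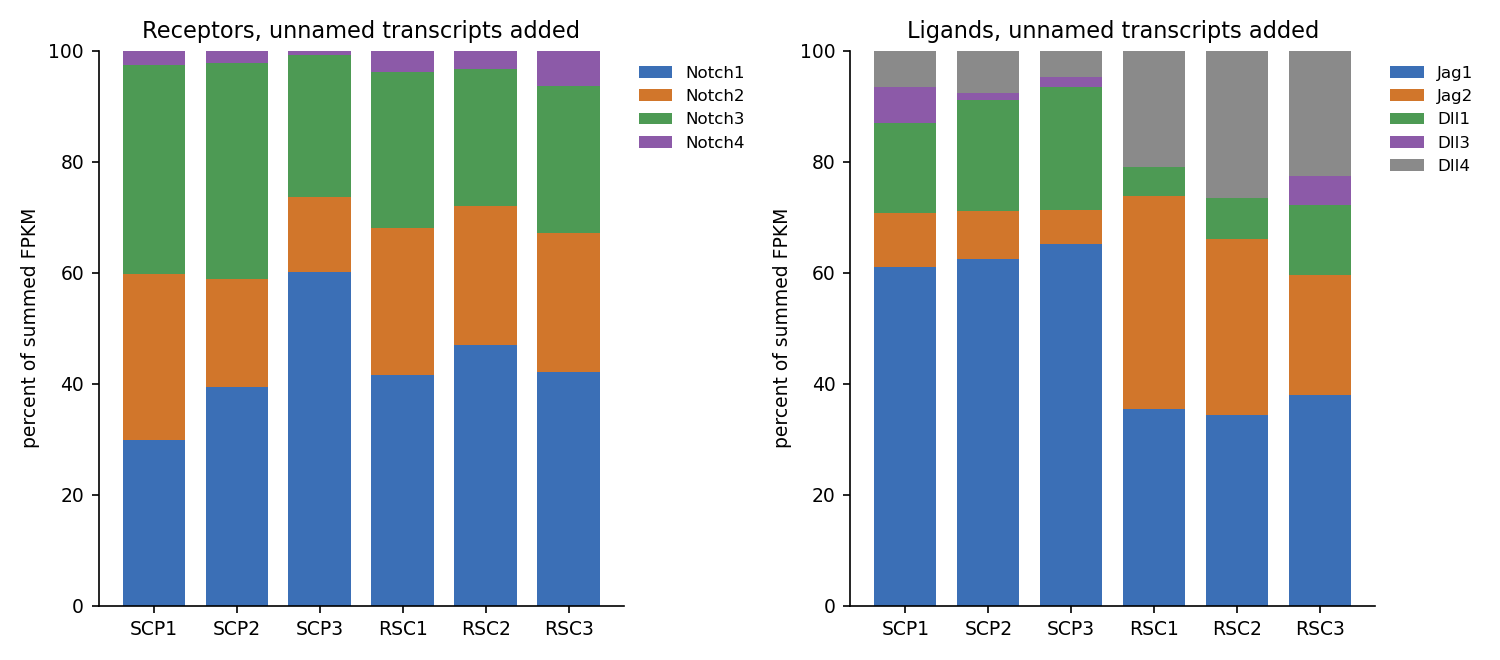
Percent of the summed FPKM of the receptors Notch1 to Notch4 (left) and of the ligands Jag1, Jag2, Dll1, Dll3 and Dll4 (right) in each sample, with unnamed transcripts added. Jag1 takes 61.1% to 65.1% of the ligand FPKM in SCPs and 34.4% to 37.9% in RSCs, while the receptors keep overlapping shares for Notch1, Notch2 and Notch3.

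Of the receptors, Notch3 and Notch2 were called lower in RSCs once unnamed transcripts were added, and Notch1 was not. With length-weighted values all 3 were called lower, Notch1 included, and from named transcripts 0 of the 3 were called. The named values of Notch2 and Notch3 rest on little, since their full-length reference transcripts carried LOWDATA, the status Cufflinks gives a locus it finds too complex or too shallowly sequenced, in all 6 samples, and were at 0 in 4 and 3 of them. At Notch3 the unnamed transcripts spanned the whole gene in every sample and were 7943 to 8036 bases long, against 7315 for the reference transcript.

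Notch3 (chromosome 7, 14138495 to 14189688) encodes the receptor best known in mural cells of blood vessels. Its named transcript was listed at 0, 13.7 and 0 FPKM in SCP1, SCP2 and SCP3 and at 4.46, 0 and 3.65 FPKM in RSC1, RSC2 and RSC3, with a log2 fold change of 0.26 ± 1.26 (SE). With unnamed transcripts added it gave 49.2, 51.4 and 42.3 FPKM in SCPs and 18.6, 15.4 and 14.8 FPKM in RSCs. The groups were then far apart, with means of 47.6 ± 4.74 and 16.3 ± 2.01 FPKM (SD, n = 3 each). The log2 fold change was -1.49 ± 0.13 (SE, limma adjusted p = 0.000158), or -1.23 relative to the median gene, and -1.51 with length-weighted values. Of 10 mural cell markers, 2 were called higher in RSCs and 0 lower from named transcripts, they summed to 116, 387 and 214 FPKM in SCPs and 278, 259 and 206 FPKM in RSCs, the most abundant was Acta2, and Rgs5 was at 0 in all RSC samples. Unnamed transcripts included, Rgs5 was 4.98, 9.99 and 5.28 FPKM in SCPs and 98.4, 79.9 and 75.3 FPKM in RSCs, and the 10 markers summed to 124, 407 and 230 FPKM in SCPs and 390.4, 350.4 and 385 FPKM in RSCs. Rgs5, Cspg4 and Des were then called higher in RSCs and Pdgfrb lower. The part of mural cells in the level of Notch3 was not tested.

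Notch2 (chromosome 2, 200187184 to 200317621), a widely expressed receptor, was listed from named transcripts at 3.83 FPKM in SCP1, 3.62 FPKM in RSC1 and 0 in the other 4 samples. A further placement of 329 bases elsewhere on chromosome 2 was at 0 in all samples. Adding unnamed transcripts, Notch2 gave 39.2, 25.8 and 22.5 FPKM in SCP1, SCP2 and SCP3 and 17.5, 15.8 and 14.0 FPKM in RSC1, RSC2 and RSC3. The groups did not overlap, and SCP1 stood above the other SCP samples. The log2 fold change was -0.81 ± 0.22 (SE, limma adjusted p = 0.0168), or -0.55 relative to the median gene. The call was lost without SCP2, RSC1, RSC2 or RSC3, at log2 fold changes of -0.88, -0.89, -0.82 and -0.74 and unadjusted limma p-values of 0.018 to 0.0347, and under median-of-ratios or quantile normalization. With length-weighted values the SCP samples drew together at 36.5, 32.1 and 29.7 FPKM, and the change was -0.74 ± 0.10 (SE, limma adjusted p = 0.000713).

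Notch1 (chromosome 3, 3905562 to 3951015) encodes the receptor most studied in Schwann cells, and it had by far the most named FPKM of the receptors. Named transcripts gave 32.1, 41.4 and 27.1 FPKM in SCP1, SCP2 and SCP3 and 27.5, 20.5 and 23.5 FPKM in RSC1, RSC2 and RSC3. SCP3 and RSC1 were nearly level, so the groups overlapped, and the log2 fold change was -0.46 ± 0.19 (SE, limma adjusted p = 0.0944). Unnamed transcripts added 72.2 FPKM in SCP3, split between 3 pieces of the gene, the shortest of 268 bases at 31.6 FPKM, and raised that sample to 99.3 FPKM. The length-weighted value counts short pieces for less and leaves out pieces placed in another assembled locus. Left out here were the pieces of 268 bases in SCP3, 752 bases in SCP2 and 642 bases in RSC2. The value was 38.7, 41.4 and 46.1 FPKM in SCPs and 27.5, 22.9 and 23.5 FPKM in RSCs, and the change was -0.75 ± 0.10 (SE, limma adjusted p = 0.000761). With unnamed transcripts the change was -1.11 ± 0.33 (SE, limma adjusted p = 0.0262), which missed the threshold with all 6 samples. It passed without SCP1, at -1.40, and without SCP3, at -0.73.

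Summed over Notch1 to Notch4 with unnamed transcripts, receptor FPKM was 131, 132 and 165 in SCP1, SCP2 and SCP3 and 66.0, 62.7 and 55.9 in RSC1, RSC2 and RSC3. Notch4, a receptor known from endothelium, made up little of this, at 3.25, 2.89 and 1.19 FPKM in SCPs and 2.50, 2.08 and 3.51 FPKM in RSCs. From named transcripts, Notch1 held 85.9% ± 12.96 of the receptor FPKM in SCPs and 83.4% ± 7.68 in RSCs (SD, n = 3), a two-sided exact permutation p of 0.9. With unnamed transcripts it held 43.1% ± 15.5 and 43.6% ± 2.92, Notch2 21.0% ± 8.32 and 25.5% ± 0.803, and Notch3 34.1% ± 7.35 and 26.5% ± 1.78. For these 3 receptors the shares overlapped between the groups, with exact permutation p-values of 1, 0.4 and 0.3. The share of Notch4 was 1.797% ± 0.945 in SCPs and 4.46% ± 1.59 in RSCs and did not overlap, with an exact permutation p of 0.1, the smallest possible. With length-weighted values the Notch3 share was 40.2% ± 2.29 in SCPs and 27.5% ± 1.88 in RSCs and did not overlap, with an exact permutation p of 0.1, the smallest possible.

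Rbpj, through which the canonical pathway acts on DNA, changed about as much as the median gene once unnamed transcripts were counted. Its position is chromosome 14, 59657741 to 59736159. Named transcripts gave 23.5, 20.3 and 22.5 FPKM in SCP1, SCP2 and SCP3 but 18.2, 6.61 and 0 FPKM in RSC1, RSC2 and RSC3, with a log2 fold change of -2.13 ± 1.04 (SE, limma adjusted p = 0.146). RSC2 and RSC3 were thus much lower than RSC1. The change was -1.96 relative to the median gene, and it was -0.93 without RSC3 and -3.06 without RSC1. Once unnamed transcripts were added, the RSC samples drew level at 18.2, 18.0 and 18.7 FPKM, and the SCP samples were at 23.5, 24.1 and 22.5 FPKM. The groups did not overlap, and the log2 fold change of -0.33 ± 0.09 (SE, limma adjusted p = 0.0154) was -0.07 relative to the median gene. The call was lost without any one of SCP1, SCP2, SCP3, RSC1, RSC2 and RSC3, at changes of -0.36 to -0.31, and under either rescaling and with length-weighted values.

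**Figure D3:**
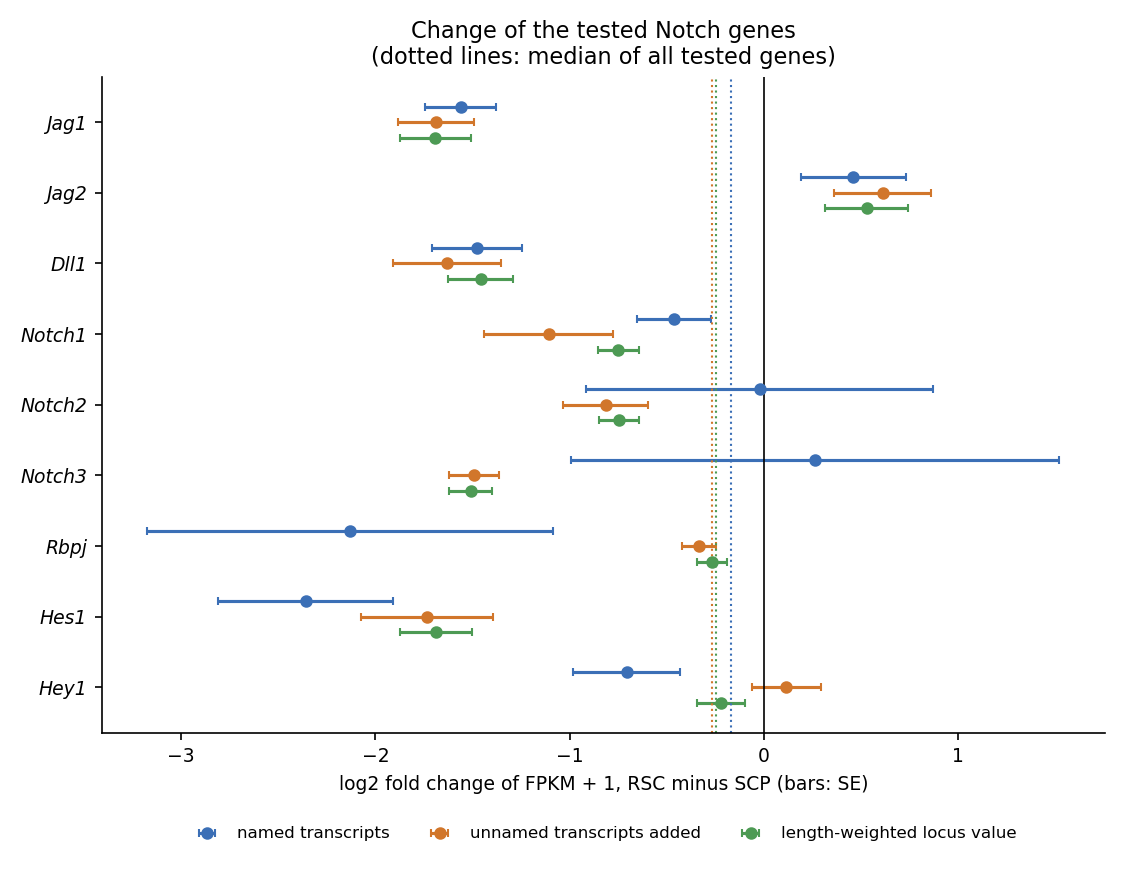
Log2 fold change of FPKM + 1, RSC minus SCP, of the 9 tested genes (points) with its standard error (bars), from named transcripts, with unnamed transcripts added and with length-weighted values. Dotted lines mark the median of all tested genes for each. Notch1, Jag1, Dll1 and Hes1 lie left of the medians with all 3 values, Rbpj sits near the median once unnamed transcripts count, and Notch2, Notch3 and Hey1 change side.

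Of the target genes, Hes1 was lower in RSCs, Hey1 gave opposite signs with the different values and Hes5 was listed at 0 in 5 of 6 samples. Hes1 (chromosome 11, 74312837 to 74315249), a repressor that keeps progenitors undifferentiated, was the most abundant of the 10 genes in SCPs. Its named transcript gave 55.3, 59.3 and 44.6 FPKM in SCP1, SCP2 and SCP3 and 19.0, 4.71 and 9.06 FPKM in RSC1, RSC2 and RSC3. The groups were wide apart, and within the RSC group RSC1 was about 4-fold above RSC2. The log2 fold change was -2.36 ± 0.45 (SE, limma adjusted p = 0.00718), or -2.19 relative to the median gene. Its values with unnamed transcripts were 96.3, 84.4 and 44.6 FPKM in SCPs and 19.0, 28.8 and 16.2 FPKM in RSCs, and the change was -1.74 ± 0.34 (SE, limma adjusted p = 0.00482). Length-weighted values gave 19.0, 18.8 and 16.1 FPKM in RSCs and a change of -1.69 ± 0.19 (SE). From named transcripts, leaving out SCP1, SCP2 or RSC3 gave changes of -2.32, -2.27 and -2.33 and took the unadjusted limma p from 0.00206 to between 0.0101 and 0.0104, so that the call was lost.

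Hey1 (chromosome 2, 95320283 to 95322701), a related repressor, was listed from named transcripts at 13.2, 15.9 and 8.16 FPKM in SCP1, SCP2 and SCP3 and 8.78, 6.005 and 6.37 FPKM in RSC1, RSC2 and RSC3. SCP3 lay below RSC1, and the change of -0.71 ± 0.28 (SE) had a limma adjusted p of 0.0826. Without SCP3 the change was -0.96 with an unadjusted limma p of 0.00785, and Hey1 was called. With unnamed transcripts added, the RSC samples rose to 15.3, 16.8 and 11.9 FPKM, SCP3 rose to 11.3 FPKM, and the change turned to 0.12 ± 0.18 (SE, limma adjusted p = 0.594). In RSCs these unnamed transcripts were 512, 521 and 716 bases long, and with length-weighted values the change was -0.22 ± 0.12 (SE, limma adjusted p = 0.147), beside -0.25 for the median gene.

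Hes5 (chromosome 5, 172364421 to 172365188), the target used as a readout of Notch activity in neural progenitors, was listed at 0.878 FPKM in SCP1 and at 0 in the other 5 samples, with no unnamed transcript at its position. With 1 sample above 0, a permutation test cannot separate the groups, and none is given. A value of 0 in these tables is not proof of absence, since Ctbp2, a widely used corepressor named after its values were seen, was also at 0 in all 6 samples from named transcripts. Of the markers of neural progenitors, 5 of 6 had a row, their sum was 1.85, 0.123 and 0.139 FPKM in SCPs and 0 in RSCs, Neurod1 was the most abundant, and Neurog2 and Pax6 were at 0 throughout.

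The order of the genes by mean FPKM, which is scaled per length, differed between the groups. With unnamed transcripts the order in SCPs was Hes1, Notch1, Notch3, Notch2, Rbpj, Jag1, Hey1, Dll1, Jag2 and Hes5. Neighbours whose samples overlapped were Hes1 and Notch1, Notch1 and Notch3, Notch2 and Rbpj, and Jag1 and Hey1. In RSCs it was Notch1, Hes1, Rbpj, Notch3, Notch2, Hey1, Jag1, Jag2, Dll1 and Hes5. There every neighbour from Notch1 down to Hey1 overlapped the next, and so did Jag1 and Jag2. Hes1 had a mean of 75.1 ± 27.0 FPKM in SCPs and 21.3 ± 6.63 FPKM in RSCs (SD, n = 3 each). With unnamed transcripts added all RSC samples were below all SCP samples for Notch1, Notch2, Notch3, Jag1, Dll1, Hes1 and Rbpj. These are 7 of 9 genes, beside 43.3% of all genes tested. The order changed with length-weighted values. Notch3 was then above Notch1 in SCPs, at means of 51.8 and 42.1 FPKM. In RSCs Rbpj, at 12.9 FPKM, was then below Notch2, Hes1 and Notch3, at 19.1, 18.0 and 17.6 FPKM. This value divides by each gene's longest reference transcript, so ranks between genes depend on that length. The longest of Rbpj, of 7562 bases, was at 0 FPKM in every sample. That of Notch2 has 7941 bases, while its unnamed transcript in RSC2 had 10424. The order with these values is therefore no measure of relative abundance.

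The tested genes outside the Notch and marker lists whose named profile was most like that of Hes1 were Mogat2, Uhrf2 and Rnf44. Likeness was the root mean square difference of log2(FPKM + 1), centred on each gene's mean over the 6 samples, and was 0.23, 0.23 and 0.24 log2 units. Uhrf2, for example, gave 60.2, 61.4 and 54.2 FPKM in SCPs and 16.7, 3.88 and 12.6 FPKM in RSCs. RSC2 was the lowest sample for both genes in named values, but it was the highest RSC sample for Hes1 with unnamed transcripts added. Likeness was computed from named values and not from the others.

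The rest of the pathway was examined in 68 further genes listed by role, of which 67 had a row and 62 were tested from named transcripts. From named transcripts the share called lower was that of all tested genes, and the share called higher was smaller. Dlk1 and Hey2 fell and Thbs2, Lfng and Dtx3l rose by more than 10-fold in mean FPKM. Of the 62 genes 14 were called lower (22.6%, beside 22.4% of all tested genes) and 6 higher (9.68%, beside 18.1%), and the median log2 fold change was -0.05, beside -0.17 for all tested genes. With unnamed transcripts added, 24 of 63 were called lower (38.1%, beside 32.9%) and 11 higher (17.5%, beside 21.9%), and the median was -0.24 beside -0.27. Under median-of-ratios scaling, 11 were called lower and 10 higher from named transcripts, beside 2195 and 2763 of all 13003 genes. The median was then 0.12, beside 0.01 for all genes. That scaling with unnamed transcripts gave 17 lower and 15 higher, beside 3318 and 3878 of all 14105 genes.

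Of the other Hes and Hey family genes and the feedback gene Nrarp, 2 of 6 tested were called lower (33.3%, beside 22.4% of all tested genes) and 0 higher (beside 18.1%). Hey2, a repressor known from heart and vessels, gave 7.04, 18.9 and 17.7 FPKM in SCPs and 0.846, 0.942 and 1.27 FPKM in RSCs, a log2 fold change of -2.84 ± 0.39 (SE, limma adjusted p = 0.00196). Hes6, which counteracts Hes1, was at 22.2, 19.8 and 15.6 FPKM in SCPs and 8.87, 9.84 and 8.44 FPKM in RSCs, a change of -0.99 ± 0.16 (SE, limma adjusted p = 0.00411). Both separated the groups in every sample. Heyl, named after its values were seen, gave 30.7, 41.5 and 23.3 FPKM in SCPs and 5.49, 6.19 and 5.12 FPKM in RSCs with unnamed transcripts added, a change of -2.28 ± 0.22 (SE, limma adjusted p = 0.00023), and missed the threshold from named transcripts. Nrarp, a feedback inhibitor that the pathway induces, was not called, at 2.70, 4.57 and 3.997 FPKM in SCPs and 6.20, 3.88 and 4.71 FPKM in RSCs. Its groups overlapped.

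In the group of non-canonical ligands and modulators outside the cell, 2 of 6 tested genes were called lower (33.3%, beside 22.4% of all tested genes) and 1 higher (16.7%, beside 18.1%). All 3 were over 4-fold, as were 3.78% of all tested genes lower and 7.81% higher. Counting unnamed transcripts, 2 of 6 were called lower and 3 higher (50%, beside 21.9%), and length-weighted values gave the same counts (50% higher, beside 24.9%). Dlk1, an imprinted Delta-like protein, gave 95.4, 113 and 200 FPKM in SCPs and 4.44, 5.68 and 4.11 FPKM in RSCs, a log2 fold change of -4.51 ± 0.29 (SE). Mfap2, a microfibril protein that can bind Jagged-1, gave 287, 295 and 307 FPKM in SCPs and 34.3, 45.2 and 39.2 FPKM in RSCs, a change of -2.88 ± 0.11 (SE). Thbs2, a thrombospondin that can bind Notch3, went the other way, from 0.621, 2.47 and 2.45 FPKM in SCPs to 189, 164 and 162 FPKM in RSCs, a change of 6.002 ± 0.32 (SE). The limma adjusted p-values were 0.000128, 2.8e-05 and 6.5e-05. Mfap5, named after its values were seen, gave 0.253, 0.470 and 0.533 FPKM in SCPs and 47.5, 58.0 and 47.5 FPKM in RSCs with unnamed transcripts added. Thbs2, Mfap2 and Mfap5 are also made by fibroblasts, whose 8 markers summed to 885, 1120 and 1235 FPKM in SCPs and 5405, 8063 and 6806 FPKM in RSCs. Of these 8 markers 5 were called higher and 2 lower in RSCs, the most abundant was Dcn, and none was at 0 in a whole group. Their part in these changes was not tested.

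Of the enzymes that modify the receptor with sugars, 1 of 5 was called from named transcripts, and it was Lfng (20% higher, beside 18.1% of all tested genes). After adding unnamed transcripts 2 of 5 were called lower (40%, beside 32.9%) and 2 higher (40%, beside 21.9%). These were Pofut1 and Poglut1, at -0.57 and -0.70, and Lfng and Mfng, at 3.73 and 0.82, of which all but Lfng were named after their values were seen. Length-weighted values gave -0.13 for Pofut1 and -0.56 for Poglut1, and neither was called. With unnamed transcripts and median-of-ratios scaling, 0 of 5 were called lower and 2 higher, beside 3318 and 3878 of all 14105 genes. Lunatic fringe, which adds a sugar to the receptor and shifts its response from Jagged toward Delta ligands, was at 2.52, 2.55 and 3.98 FPKM in SCP1, SCP2 and SCP3 and at 71.5, 56.2 and 60.1 FPKM in RSC1, RSC2 and RSC3. All RSC samples were far above all SCP samples, with a log2 fold change of 3.998 ± 0.19 (SE, limma adjusted p = 4.6e-05), and no unnamed transcript was added to it in RSCs. Fringe genes are also expressed by leukocytes, whose 10 markers summed to 18.1, 30.1 and 42.7 FPKM in SCPs and 2231, 2576 and 2678 FPKM in RSCs. All 9 tested leukocyte markers were called higher in RSCs, the most abundant was Lyz2, and Cybb was at 0 in all RSC samples from named transcripts but at 29.7, 37.1 and 34.7 FPKM there with unnamed ones. Their part in the level of Lfng, or of any other gene here, was not tested.

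Among the genes of receptor cleavage, 2 of 9 were called higher (22.2%, beside 18.1% of all tested genes) and 0 lower (beside 22.4%), and their median log2 fold change was 0.38, beside -0.17 for all tested genes. Ncstn, the gamma-secretase subunit nicastrin, rose from 26.6, 26.2 and 23.8 FPKM in SCPs to 49.0, 49.0 and 47.9 FPKM in RSCs, a change of 0.90 ± 0.09 (SE, limma adjusted p = 0.000495). Aph1b, another subunit, rose by 0.50 ± 0.13 (SE, limma adjusted p = 0.0202). Under median-of-ratios scaling 4 of 9 were called higher, beside 2763 of all 13003 genes. With unnamed transcripts added 2 of 9 were called higher (22.2%, beside 21.9%), and the median was 0.20, beside -0.27. Length-weighted values also gave 2 of 9 higher (22.2%, beside 24.9%). Adam10, the protease that makes the first ligand-dependent cut, was at 55.7, 59.4 and 45.1 FPKM in SCPs and 51.2, 39.8 and 47.7 FPKM in RSCs and was not called.

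Of 14 ubiquitin ligases and endocytosis genes, 3 were called lower (21.4%) and 2 higher (14.3%) from named transcripts, beside 22.4% and 18.1% of all tested genes. With unnamed ones 7 were called lower (50%) and 4 higher (28.6%), beside 32.9% and 21.9%. Under median-of-ratios scaling of these values, 3 were called lower and 5 higher, beside 3318 and 3878 of all 14105 genes. Neurl1, a ligase that acts on ligands, gave 3.16, 6.57 and 4.88 FPKM in SCPs and 0.687, 0.287 and 1.69 FPKM in RSCs, a change of -1.66 ± 0.37 (SE, limma adjusted p = 0.0133). Dtx3l, of the Deltex family, gave 0.0669, 0.589 and 0.192 FPKM in SCPs and 6.22, 4.07 and 3.77 FPKM in RSCs, a change of 2.14 ± 0.28 (SE, limma adjusted p = 0.0017).

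Of the nuclear partners of Rbpj, 4 of 8 coactivators (50%) and 3 of 12 tested corepressors (25%) were called lower, beside 22.4% of all tested genes, and 0 were called higher, beside 18.1%. In the same lists 3 coactivators and 2 corepressors had a positive log2 fold change. Counting unnamed transcripts, 4 of 8 coactivators (50%) and 6 of 13 corepressors (46.2%) were called lower, beside 32.9%, and 0 higher. Length-weighted values gave 5 of 8 coactivators (62.5%) and 9 of 13 corepressors (69.2%) lower, beside 38.0%, and 1 coactivator higher. Crebbp, a histone acetyltransferase, gave 22.6, 18.9 and 21.6 FPKM in SCPs and 11.7, 8.91 and 7.07 FPKM in RSCs, a change of -1.13 ± 0.20 (SE, limma adjusted p = 0.0049). The histone deacetylases Hdac1 and Hdac2 changed by -1.12 ± 0.11 and -1.06 ± 0.12 (SE, limma adjusted p = 0.000576 and 0.000891). Hdac1 was at 98.6, 96.5 and 78.0 FPKM in SCPs and 42.2, 41.2 and 40.2 FPKM in RSCs. Under median-of-ratios scaling of named values 3 coactivators were called lower and 1 higher, and 2 corepressors lower, beside 2195 genes lower and 2763 higher of all 13003. Maml1, the Mastermind-like coactivator, was listed at 23.9, 23.1 and 23.8 FPKM in SCPs and at 0 in every RSC sample, and no fold is given against 0. All its rows carried the LOWDATA status. So did those of Canx, a chaperone gene of the same assembled locus, of which 1 transcript was also at 0 in RSC1. Maml1 is counted among the coactivators called lower from named transcripts, with unnamed ones added and with length-weighted values.

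**Figure D4:**
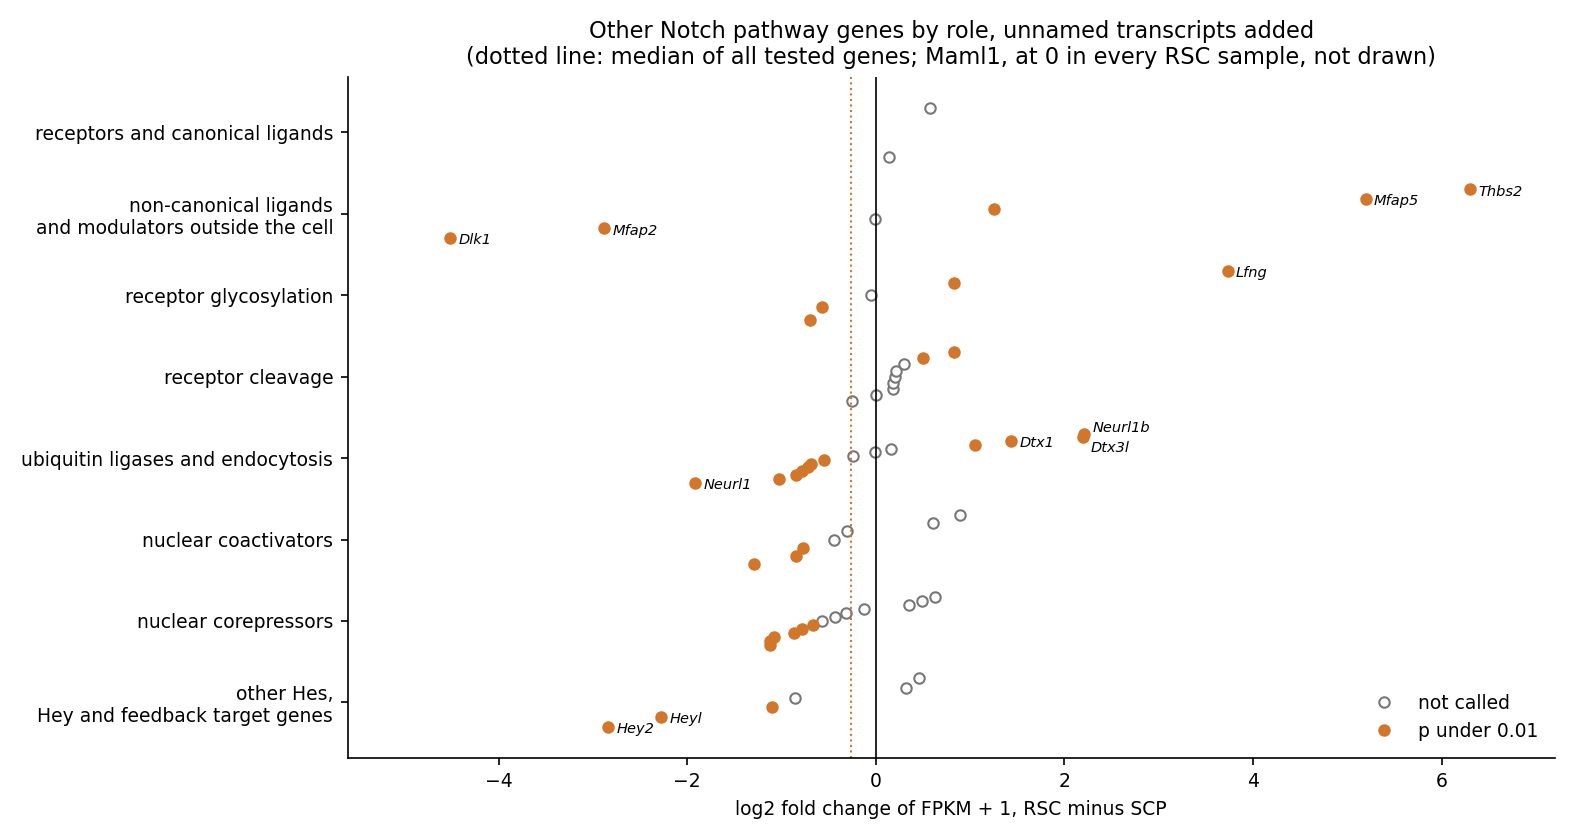
Log2 fold change of FPKM + 1, RSC minus SCP, of the tested genes of the wider Notch pathway by role, with unnamed transcripts added. Filled points passed p under 0.01, open points did not, and the dotted line is the median of all tested genes, while Maml1 is not drawn. Dlk1 and Mfap2 lie farthest to the left, and Thbs2, Mfap5 and Lfng farthest to the right.

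Both groups expressed Schwann cell lineage markers. Sox10, a transcription factor of the whole lineage, was at 179, 175 and 181 FPKM in SCPs and 149, 143 and 143 FPKM in RSCs. Ngfr was at 233, 173 and 231 FPKM in SCPs and 1046, 803 and 1068 FPKM in RSCs, and was the most abundant of the 10 lineage markers. From named transcripts these summed to 458, 458 and 519 FPKM in SCPs and 2410, 1887 and 2325 FPKM in RSCs, 4 of 8 tested were called higher and 1 lower in RSCs, and Fabp7 was at 0 in all SCP samples. Among 10 neuronal markers, 2 of 7 tested were called lower and 1 higher in RSCs. The 1 called higher was Gap43, which is also counted among the lineage markers. Neuronal markers summed to 69.2, 40.8 and 52.9 FPKM in SCPs and 49.2, 37.8 and 46.6 FPKM in RSCs. Tubb3 was the most abundant, and Elavl4 and Isl1 were at 0 in all RSC samples. With unnamed transcripts added, 3 of 7 were called lower and 1 higher, and Isl1 gave 14.1, 10.4 and 9.49 FPKM in SCPs and 0 in RSCs. The part of neurons in the levels of the Notch genes was not tested. Of 10 genes that respond to dissociation 8 were called higher and 0 lower in RSCs, summing to 826, 861 and 926 FPKM in SCPs and 2960, 3616 and 3874 FPKM in RSCs, with Hspa1b the most abundant and none at 0 in a whole group. Their part in the changes of the Notch genes was not tested.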

How the data were processed

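Processed tables of 6 samples, 3 SCP and 3 RSC, were analysed. The authors sequenced stranded mRNA libraries with paired reads, mapped them to the rat genome rn6 and, per the submitters' processing notes, used FastQC 0.11.2, TopHat2 2.1.0 and Cufflinks 2.2.1. The deposited tables give each transcript's FPKM, normalized by Cufflinks for length and mapped fragments, and its read depth as coverage, a signal used here for relative depth between samples. Each of the 6 tables held 77 transcripts with dates in place of gene names, which were left out. FPKM were summed by gene symbol.

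The mean over samples had to reach 1 FPKM, and log2(FPKM + 1) was then fitted in limma 3.58.1 (R 4.3.3) with the trend option and without blocking. A gene was called where its unadjusted p was under 0.01, and called over 4-fold where its log2 fold change was also beyond 2. Figures were drawn with matplotlib 3.10.9. The authors' own comparisons were not used here. No count test was run, since the tables hold no read counts. Precision rests on the 3 samples per group. Shares were compared by two-sided exact permutation over samples. Tables were handled with pandas 2.3.3 and numpy 2.4.6, and the fit was tested on simulated data.

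Named were the 10 genes, Notch4, Dll3 and Dll4, listed genes called over 4-fold, the 2 called genes of each role list with the largest changes, marker genes by abundance, at 0 or as defining markers, and the 3 genes most like Hes1. Nrarp and Adam10, like Heyl, Mfap5 and Canx, were added after their values were seen. Single values of some listed genes are not reported here. The genes and lists were chosen with earlier results of these data known. Alternatives changed the pseudocount (0.1), the filter (none, or 5 FPKM), the scaling (median-of-ratios or quantile), the variance trend (off), the replicate number (as a block), the samples (each omitted in turn), the transcripts (only the highest, or unnamed ones added), zeros (missing where their group reached 5 FPKM elsewhere) and the p (adjusted). Length-weighted values and combinations with unnamed transcripts were added after seeing the data. For length-weighted values, FPKM times length was summed over a gene's named transcripts and the unnamed ones that shared its Cufflinks locus. This sum was divided by the length of the gene's longest reference transcript. Length-weighted values thus differ from the sums with unnamed transcripts in the transcripts counted as well as in the weighting. The study's methods describe a transgenic line expressing red fluorescent protein for grafted cells, while the labels give wild type.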

Additional observations from a re-analysis of the deposited data

Results flagged for a closer look

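A signal in data outside the main values was found at Rbpj. Unnamed transcripts that span the whole annotated gene and reach 129.2 kb beyond its higher coordinate on rn6 held 11.43 FPKM in RSC2 and 18.69 FPKM in RSC3, and were not listed in RSC1 or in any SCP sample. The signal was thus in 2 of 3 RSC samples. RSC2 and RSC3 were the samples in which the named Rbpj transcripts were low, at 6.61 and 0 FPKM.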

How the results depend on the processing

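Jag1 kept its direction and its call in all 20 alternatives and Dll1 in all 19 that gave a value, at log2 fold changes of -1.73 to -1.37 and -2.33 to -1.33. Hes1 kept its direction in all 20 and lost its call without SCP1, SCP2 or RSC3. The 3 calls among the 9 Notch genes became 6 with unnamed transcripts, 6 with length-weighted values and 5 with unnamed transcripts and a replicate block, and were 4 with unnamed transcripts under median-of-ratios or quantile normalization. Leaving out 1 sample gave 2 to 4, and 4 to 6 with unnamed transcripts. A mean of at least 5 FPKM left Dll1 untested. All calls rose from 5268 to 8649 with length-weighted values and were 4460 to 4874 with 1 sample left out. Calls in the wider lists went from 20 to 35 (unnamed), 38 (length-weighted), and 32, 32 and 31 with unnamed transcripts under median-of-ratios scaling, quantile normalization and the block, and were 17 to 19 with 1 sample left out. Their median of -0.05 became -0.29 with a pseudocount of 0.1, 0.10 with no filter, -0.32 at 5 FPKM, 0.12 under median-of-ratios, -0.24 with unnamed transcripts (-0.24 with the block, 0.036 under median-of-ratios), 0.071 with zeros missing and -0.23 with length-weighted values, and ran from -0.30 (without SCP3, and also without RSC1) to -0.013 (without SCP1) with 1 sample left out.

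Signs turned for 4 genes. Notch2, -0.02 from named transcripts, was 0.042 under median-of-ratios, and ran from -0.76 to 0.74 with 1 sample left out, being 0.35 without RSC2 or RSC3. Notch3, 0.26 from named transcripts, reached 1.56 without SCP2 and was -0.38 without SCP1 or SCP3, -0.18 without RSC1, -0.07 without RSC3, -2.32 with zeros missing, -1.51 with length-weighted values and -1.49 with unnamed transcripts (-1.49 with the block, -1.21 under median-of-ratios, -1.39 under quantile normalization). Jag2 was -0.32 with the highest transcript. Hey1 was 0.12 with unnamed transcripts (0.12 with the block, 0.39 under median-of-ratios, 0.27 under quantile normalization).

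Differences in shares, in percentage points, moved for Notch3 to -12.7 with length-weighted values, for Jag2 from 16.8 to 6.96 (highest transcript), 22.4 (unnamed) and 23.1 (length-weighted), and for Dll4 from 18.6 to 21.1 (highest transcript) and 13.3 (length-weighted). With 1 sample left out they ran from -27.7 to -22.4 for Jag1, 14.7 to 20.4 for Jag2, -10.7 to -7.93 for Dll1, -3.40 to 0.176 for Dll3, 17.8 to 19.8 for Dll4, -8.87 to 4.08 for Notch1, -3.40 to 3.31 for Notch2, -3.68 to 8.44 for Notch3 and 0.0352 to 3.47 for Notch4. The cause of these changes was not tested.

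Samples with the same replicate number did not deviate together (correlations of 0.0435, -0.00491 and 0.0259). The study describes 3 sets of RNA-seq experiments, and the labels do not say whether the replicate numbers follow them. With the replicate number as a block, calls went from 5268 to 4275 in all and from 20 to 15 in the wider lists, the 9 Notch genes kept 3 calls from named transcripts, and Rbpj lost its call with unnamed ones. Depth is unknown, and 3 samples per group limit the precision.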

Other observations

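Several genes of ligand handling and corepression were called once unnamed transcripts were added and not from named transcripts alone, and all were named after their values were seen. Mib1, a ligase that activates ligands, then gave 15.6, 22.5 and 13.02 FPKM in SCPs and 8.96, 8.17 and 9.40 FPKM in RSCs, a log2 fold change of -0.84 ± 0.20 (SE, limma adjusted p = 0.0114). Its named transcripts had the opposite sign, at 0 in all SCP samples and 0, 7.12 and 5.30 FPKM in RSCs, and were not called. Numb, an inhibitor of the receptor, gave 19.1, 14.4 and 14.2 FPKM in SCPs and 9.14, 9.14 and 9.86 FPKM in RSCs, whereas its relative Numbl gave 23.3, 27.0 and 39.3 FPKM in SCPs and 68.6, 53.1 and 64.3 FPKM in RSCs. Ncor1, a corepressor, gave 58.8, 41.3 and 49.2 FPKM in SCPs and 26.5, 22.5 and 19.6 FPKM in RSCs. Neurl1b gave 0.358, 0.668 and 0.377 FPKM in SCPs and 5.35, 5.48 and 6.45 FPKM in RSCs, the opposite direction to Neurl1.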
